A study of Homo sapiens with 3 samples.

Results

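A stable line made with an expression vector for the open reading frame (ORF) of Hsp27 was compared with a stable line made with a control vector, across all genes that the array could name. The gene of Hsp27, a small heat shock protein, is HSPB1. The labels call the first vector IRES2-HSP27 and the second EGFP-NC, and both lines are labelled HepG2, a human liver tumour line, grown in DMEM with 10% fetal bovine serum. The labels do not say whether a line was a single clone or a pool, nor how strongly a vector was expressed. The comparison used 2 of the 3 arrays in the series, 1 array per group. The third array, from a line with a vector for a short hairpin RNA (shRNA) against Hsp27, is shown only beside them. All 19775 genes with a probe set of their own on the array entered, each through its brightest such probe set. Of these, 11800 had a mean log2 signal over the 3 arrays at or above a floor of 5.93, the median of all probe sets, and are called measured. A high signal on 1 array alone, ORF-labelled or control-labelled, can thus carry a dim gene over the floor. The 7849 genes at or above the 75th percentile of all probe sets (8.63) are called bright. Every difference below is a log2 ratio of the ORF-labelled over the control-labelled array, taken after raising lower signals to the floor, or the fold that corresponds to it. Where one of both signals lay under the floor, the fold is a lower bound on the floored scale and is written as at least that fold. Where 3 log2 signals are given for a gene, they stand in the order ORF-labelled, control-labelled and shRNA-labelled array.

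Without replicate arrays there is no replicate check, no p-value and no count of changed genes. The differences describe these arrays and not the conditions. As a yardstick of technical noise, probe sets of the same gene were compared within the same pair of arrays. This gave a noise SD of 0.412 for the log2 ratio of the dimmest measured genes and 0.0801 for the brightest. It leaves out all variation between cultures.

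Small heat shock proteins are chaperones that hold unfolding proteins in a soluble state without using ATP. HSPB1 is phosphorylated by the kinase MK2, which acts downstream of the stress kinase p38, and the form of its oligomers depends on that phosphorylation. It is also known to bind actin and to take part in signalling through NF-kB, the transcription factor of many inflammatory genes. In liver tumours it has been studied for its part in invasion and spread, which the title of the series names.

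HSPB1 did not read higher with its own vector. Its probe set had log2 signals of 13.11, 13.25 and 13.03, a log2 ratio of −0.14 (noise SD 0.0881), so the ORF-labelled array lay slightly below the control-labelled one. The labels are therefore used as names of the arrays throughout, and every direction below rests on them. The probe set is of a kind that can match several transcripts, and a transcript of the vector that lacks the part read by this probe set would not be seen. Of the 10 small heat shock proteins listed, 9 were on the array and 5 were measured. HSPB3 was 1.61-fold lower (8.47, 9.15 and 8.67). HSPB8, a partner of the co-chaperone BAG3 in protein clearance, had a log2 ratio of −0.40, but its other probe set read 0.27. CRYAB, the crystallin alpha B chain, stood near the floor with a ratio of −0.32, and HSPB7 read 0.04. None of the 16 measured p38 and MK2 pathway genes was past 1.5-fold in either direction. Their median log2 ratio was −0.0056, which turned positive under loess normalization and with the median over probe sets, and the highest was ZFP36L1, a protein that marks messenger RNAs for decay, at 0.47.

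The secreted hepatocyte markers were near or below the floor on both arrays, while several hepatocyte transcription factors were measured. Of the 6 hepatocyte markers with a probe set of their own, 0 were measured. On no array did ALB (albumin) read above 4.88, AFP (alpha-fetoprotein) above 6.25, APOA1 above 5.83 or APOB above 5.25. The sum of the 6 linear signals was 204 on the ORF-labelled and 201 on the control-labelled array. These secreted markers do not bear out the HepG2 label, which is used here as a name only. The identity of the lines was not tested. Over the wider lists, 3 of 29 proteins that hepatocytes secrete were measured, of which RBP4 (retinol-binding protein, 10.62 on the control-labelled array) was bright. The same held for 7 of 21 genes of hepatocyte metabolism and for 6 of 12 hepatocyte transcription factors, 4 of them bright, among them GATA4 and CEBPA at 10.71 and 9.96 on the control-labelled array. Among 6 markers of fibroblasts and stellate cells, 4 were measured and 2 were bright, DCN and LUM. Their summed linear signal was 9444 on the ORF-labelled and 11602 on the control-labelled array. LUM (lumican, a matrix proteoglycan) carried most of it, with log2 signals of 13.03, 13.30 and 13.35. Of 4 leukocyte markers 1 was measured (ITGB2), with PTPRC at most 4.18 on any array. Their summed linear signal was 268 on the ORF-labelled and 172 on the control-labelled array, and CD3E, which was below the floor on average, read 6.72 and 4.69. The part of this difference in the inflammatory genes below was not tested. Of 4 endothelial markers 2 were measured. RNA integrity was gauged by dividing the signal of a 3′ probe set by that of a 5′ one, which gave 2.40 and 2.70 for ACTB and 0.939 and 0.930 for GAPDH on the ORF-labelled and control-labelled arrays.

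Most genes read alike on both arrays. The median log2 ratio of the measured genes was −0.00077, and 95% of them lay between −0.61 and 0.64. On the ORF-labelled array, genes at least 1.5-fold higher numbered 365 of 11800 (3.09%), and 328 (2.78%) were at least 1.5-fold lower. At 2-fold the counts were 82 higher (0.695%) and 60 lower (0.508%). Dim genes held most of these. Of the 3951 measured genes that were not bright, 281 (7.11%) were at least 1.5-fold higher and 271 (6.86%) lower. Among the bright genes, 84 of 7849 (1.07%) were at least 1.5-fold higher and 57 (0.726%) lower, and 12 (0.153%) and 11 (0.14%) passed 2-fold. These shares are the background against which the members of each gene group are read below. The split of the 1.5-fold differences, 52.7% higher, became 46.1% higher when the arrays were set to equal medians and 48.6% under quantile or loess normalization, so the balance of both directions depends on the scaling.

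**Figure D1:**
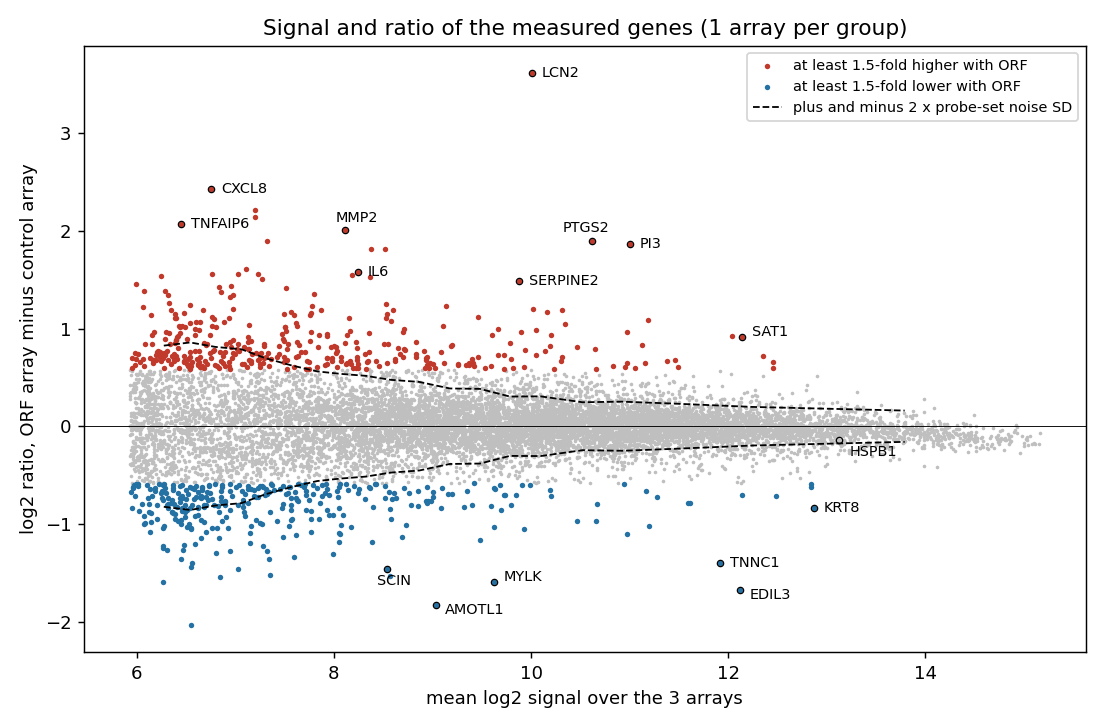
Log2 ratio of the ORF-labelled over the control-labelled array (y axis) against mean log2 signal over the 3 arrays (x axis) for the measured genes, 1 point per gene. The lines mark the probe-set noise SD, plus and minus 2 times, which narrows as the signal grows, and LCN2 at 3.61 and AMOTL1 at −1.83 stand far outside it.

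Among secreted proteins of innate defence, LCN2 and PI3 read higher on the ORF-labelled array. LCN2 (lipocalin 2, which binds bacterial iron carriers) had log2 signals of 11.94, 8.33 and 9.76, a 12.2-fold difference. PI3 (elafin, an inhibitor of neutrophil elastase) read 11.87, 10.01 and 11.12, which is 3.63-fold, and its other probe set gave a log2 ratio of 1.57. For both genes the shRNA-labelled array lay between the others. Of 19 secreted innate defence proteins on the array 7 were measured, and these were the only 2 of the 7 past 1.5-fold; the median of the list was 0.19.

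Chemokines, which draw leukocytes along a gradient, were mostly higher on the ORF-labelled array, yet none was bright. Of 18 on the array 8 were measured, 4 of the 8 were at least 1.5-fold higher and 1 was lower, beside 7.11% and 6.86% of all measured genes that were not bright. Their median log2 ratio was 0.62. CXCL8 (interleukin 8, a neutrophil attractant) had log2 signals of 8.36, 5.41 and 6.50 and was at least 5.40-fold higher, because the control-labelled signal lay under the floor. CXCL1, another neutrophil attractant, read 7.93, 6.33 and 7.05, a 3.04-fold difference with a noise SD of 0.386 for its log2 ratio. CXCL16 was 1.93-fold and CXCL2 1.79-fold higher. CCL2, the main attractant of monocytes, went the other way and was 2.21-fold lower (6.03, 7.18 and 7.29). It was the 1 measured chemokine with a ratio below 0.

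Among the inflammatory cytokines 9 of 20 were measured, 3 of the 9 at least 1.5-fold higher and 0 lower. IL6, the inducer of the acute phase response, had log2 signals of 8.83, 7.25 and 8.66 and was 3.00-fold higher. IL11, which signals through the same gp130 chain, read 9.68, 8.45 and 9.29, a 2.35-fold difference that its other probe set gave as a log2 ratio of 0.74. IL7, a lymphocyte growth factor, was 1.75-fold higher. Cytokine receptors had a median of 0.21 over 20 measured genes, with 3 at least 1.5-fold higher. These were IL1R1 (the signalling receptor of interleukin 1), 1.91-fold, IL4R, 1.55-fold, and IL20RB, with a log2 ratio of 0.59. LIFR, the receptor of leukaemia inhibitory factor, was bright and lower with a log2 ratio of −0.58 (11.90, 12.49 and 11.99), and its probe sets ranged from −0.61 to −0.51.

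NF-kB enters the nucleus when its inhibitors are degraded, and it drives the genes of several of those inhibitors in turn. All 8 measured feedback inhibitors read above 0, with a median of 0.19 that became −0.0013 without probe sets that can match several transcripts, and only NFKBIZ was past 1.5-fold (10.62, 9.85 and 9.96, 1.71-fold). The other probe set of NFKBIZ read 0.08. Of 12 measured NF-kB subunits and regulators, NFKB2, the precursor of p52, was the 1 member past 1.5-fold, at 1.64-fold. TNFAIP6, a hyaluronan-binding protein made in inflammation, had log2 signals of 7.99, 4.61 and 6.73. It was at least 4.19-fold higher, and its 2 probe sets gave floored log2 ratios of 2.07 and 2.14. Both probe sets counted as measured only through their signal on the ORF-labelled array.

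The promoters of CXCL1, IL6 and LCN2 are shown because they hold the letters of an NF-kB motif within 250 bases before the start of the gene. Sequences come from the RefSeq promoter table (assembly GRCh38.p14), are written 5′ to 3′ on the strand of the gene, and carry the motif in capitals.
CXCL1, chr4:73869143-73869392, plus strand: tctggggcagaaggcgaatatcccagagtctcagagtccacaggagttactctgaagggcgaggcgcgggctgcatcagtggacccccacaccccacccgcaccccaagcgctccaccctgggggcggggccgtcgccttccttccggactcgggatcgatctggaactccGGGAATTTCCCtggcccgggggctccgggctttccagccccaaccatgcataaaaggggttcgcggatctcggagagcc
IL6, chr7:22726950-22727199, plus strand: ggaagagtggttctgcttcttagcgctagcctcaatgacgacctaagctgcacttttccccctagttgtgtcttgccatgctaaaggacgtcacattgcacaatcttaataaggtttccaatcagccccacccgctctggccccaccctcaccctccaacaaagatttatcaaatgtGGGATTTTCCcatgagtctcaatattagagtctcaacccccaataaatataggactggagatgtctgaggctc
LCN2, chr9:128149203-128149452, plus strand: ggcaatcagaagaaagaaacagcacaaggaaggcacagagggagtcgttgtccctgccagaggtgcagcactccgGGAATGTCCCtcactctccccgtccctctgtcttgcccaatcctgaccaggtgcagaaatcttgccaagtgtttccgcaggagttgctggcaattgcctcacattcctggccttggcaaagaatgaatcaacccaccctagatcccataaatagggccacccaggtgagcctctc
Both strands were searched. The motif was found in 9 of 19 promoters (47.4%) of the measured chemokines, cytokines, NF-kB inhibitors and defence proteins: NFKBIA, NFKBIZ, TNFAIP3, CXCL1, CXCL2, CXCL3, IL6, IL32 and LCN2. It stood in 9.57% of all 27305 promoters of the same length and in 11.8% of those of measured genes. Of the genes at least 1.5-fold higher, 15.8% held it (42 of 266), and of those at least 1.5-fold lower, 13.1% (32 of 244). Among bright genes the order was the opposite, 12.3% (8 of 65) of those higher and 19.6% (9 of 46) of those lower. The letters searched for were GGGRNNYYCC, where R is A or G, Y is C or T, and N is any base. The window of CXCL8 held no match to them, but a site that departs from these letters would not be found. Groups such as these chemokines, cytokines, NF-kB inhibitors and defence proteins were chosen for their known regulation. Their share thus describes the list and not these arrays.

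Prostaglandins are made from arachidonic acid, which phospholipases release and cyclooxygenases convert. PTGS2 (cyclooxygenase 2, the inducible form) read 11.58, 9.69 and 10.59, a 3.71-fold difference, and its other probe set gave a log2 ratio of 1.67. PLA2G4A, the cytosolic phospholipase that releases arachidonic acid, read 12.45, 11.52 and 12.13 and was 1.90-fold higher (noise SD 0.103). PTGS1, the constitutive cyclooxygenase, was 1.80-fold higher, but its probe sets ranged from 0.23 to 0.84. On the other side, HPGD, which inactivates prostaglandins, was at least 2.06-fold lower (5.63, 6.97 and 6.20), and PTGDS, the prostaglandin D2 synthase, was 2.29-fold lower with probe sets from −1.20 to 0.31. HPGD counted as measured only through its signal on the control-labelled array. In all, 3 of the 15 measured genes of the pathway were at least 1.5-fold higher and 2 lower.

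Acute phase and STAT3 target genes had a median of 0.23, and 11 of 12 measured members read above 0. C3, the central complement component, was 1.65-fold higher (12.69, 11.96 and 12.43), and CFB, a factor of the alternative complement pathway, was 1.63-fold higher. SOCS3, the feedback inhibitor of gp130 signalling, had a log2 ratio of 0.38 and probe sets from 0.38 to 0.54. Interferon-stimulated genes showed a small shared offset: 23 of 29 measured genes read above 0 with a median of 0.21, and 0 of 29 were past 1.5-fold. IFI16, a DNA sensor and the brightest of those named here, had log2 signals of 12.13, 11.56 and 12.07. MHC class I genes had a median of −0.055, which became 0.073 without probe sets that can match several transcripts, with 0 of 19 past 1.5-fold.

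**Figure D2:**
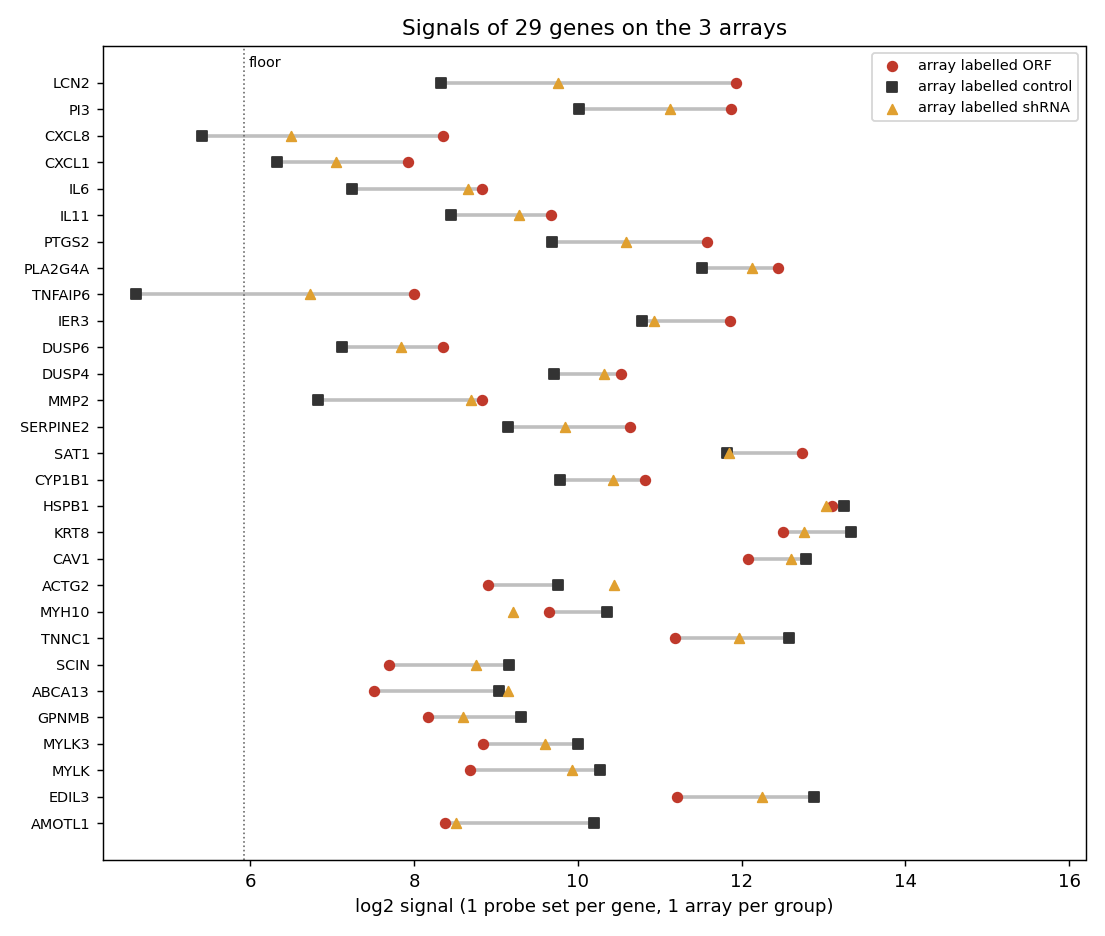
Log2 signals of 29 genes (x axis) on the ORF-labelled, control-labelled and shRNA-labelled arrays, 1 probe set per gene and 1 array per group, with no error bars because no array was repeated. The genes run from LCN2, 11.94 against 8.33, to AMOTL1, 8.37 against 10.20, and HSPB1 has its 3 points close together between 13.03 and 13.25.

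Feedback genes of the ERK pathway, which growth factor signalling through RAS, RAF and MEK turns on and which then dampen it, held 7 genes at least 1.5-fold higher and 0 lower among 23 measured. Their median was 0.24. DUSP6, the phosphatase specific to ERK, had log2 signals of 8.35, 7.12 and 7.84, a 2.35-fold difference with probe sets of 1.17 and 1.23. IER3, an early response gene, read 11.86, 10.78 and 10.93 and was 2.12-fold higher (noise SD 0.121). DUSP4, a nuclear MAP kinase phosphatase, was 1.77-fold higher (10.53, 9.71 and 10.32), and its 3 probe sets ranged from 0.61 to 1.02. SPRED3 was at least 1.95-fold higher, with the control-labelled signal under the floor, and ETV5, an ETS transcription factor, was 1.67-fold higher. SPRED3 counted as measured only through its signal on the ORF-labelled array. SPRY4 and SPRED2 had log2 ratios of 0.64 and 0.61.

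The transcription factors of the immediate early response had a median of 0.13, and 11 of 18 measured genes read above 0. Of these 18, 1 was at least 1.5-fold higher and 1 lower. MAFF had a log2 ratio of 0.59, with its other probe set at −0.19. NR4A3, an orphan nuclear receptor, was 1.84-fold lower, and EGR1 and FOSL1 had log2 ratios of −0.38 and 0.34. Among 11 measured EGF receptor family genes, 2 were past 1.5-fold, both lower: ERBB4, 1.78-fold (6.11, 6.94 and 6.81), and NRG1 (neuregulin 1, its ligand), 1.75-fold (8.87, 9.68 and 9.65). EREG, an EGF receptor ligand, read 0.52 with its other probe set at 0.57. Of 22 other growth factors and receptors, IGFBP1, a secreted binding protein for insulin-like growth factors, was 2.16-fold higher (9.97, 8.86 and 9.55). FGF2, a fibroblast growth factor, was 1.51-fold higher.

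Wnt, Notch, TGF-beta and Hippo components mostly stayed within 1.5-fold, as did most measured genes, of which 3.09% were higher and 2.78% lower. None of 22 measured TGF-beta and BMP pathway genes was past 1.5-fold. In the Wnt pathway 2 of 20 were lower, FZD1, a Wnt receptor, 2.42-fold (6.53, 7.81 and 7.62) and DKK3, a secreted Dickkopf family protein, 2.13-fold. FZD10, a Wnt receptor outside that list, was bright and 2.28-fold higher (10.98, 9.80 and 10.15). HES1, a target of Notch, was 1.66-fold higher with its probe sets at 0.73 and 1.24. DLL3, a Notch ligand, was 1.58-fold higher, but its 3 measured probe sets ranged from −0.22 to 0.66. Among 21 measured Hippo pathway genes 1 was past 1.5-fold. This was AMOTL1, an angiomotin that binds YAP at cell junctions and actin, with log2 signals of 8.37, 10.20 and 8.52, 3.55-fold lower. Its other measured probe set read −0.26, so the probe sets of AMOTL1 differed widely.

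Proteases and their inhibitors differed gene by gene. MMP2 (gelatinase A, which cleaves basement membrane collagen) had log2 signals of 8.83, 6.82 and 8.69, a 4.02-fold difference. It was the 1 gene of 10 measured metalloproteinases and relatives past 1.5-fold, and the shRNA-labelled array lay near the ORF-labelled one. MMP9 and MMP7 had log2 ratios of −0.54 and −0.49, and MMP14, which activates the MMP2 protein, read 0.33. SERPINE2 (protease nexin 1, an inhibitor of thrombin and of plasminogen activators) was 2.79-fold higher (10.63, 9.15 and 9.85). PLAUR, the urokinase receptor, was 1.76-fold higher (10.82, 10.01 and 10.56) with its 3 probe sets from 0.42 to 0.81. S100A10, a subunit of the annexin A2 complex that binds plasminogen, was bright at 13.96, 14.38 and 14.03, a log2 ratio of −0.42. CTSS, a lysosomal cysteine protease, had a log2 ratio of 0.997, the highest of its 3 probe sets, and the lowest was 0.77. TGM2, the tissue transglutaminase that crosslinks proteins, had a log2 ratio of 0.998 (10.25, 9.25 and 9.49).

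Collagens and laminins leaned lower on the ORF-labelled array, with a median of −0.29 over 21 measured genes, 5 above 0, 0 at least 1.5-fold higher and 2 lower. LAMA4, a laminin chain of vessel and muscle basement membranes, was 2.56-fold lower (6.80, 8.16 and 7.07). COL5A2, a chain of fibrillar collagen V, was 1.92-fold lower and its other probe set read −0.75. EDIL3, an integrin-binding matrix protein, was the brightest gene past 2-fold, with log2 signals of 12.89 on the control-labelled array, 11.21 on the ORF-labelled one and 12.25 on the shRNA-labelled one. That is 3.20-fold lower (noise SD 0.101), and its other measured probe set read −0.82. MFAP5, a microfibril protein, went the opposite way and was 3.51-fold higher (8.88, 7.06 and 9.18). NPNT (nephronectin, an integrin ligand) was 1.96-fold lower, yet its other probe set read −0.05. The fibroblast and stellate cell markers had a median of −0.26 over 8 measured genes on the same pair of arrays. Their part in the matrix values was not tested. Those markers include COL3A1, DCN and LUM, which are also among the matrix genes listed.

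Integrins, which link matrix to actin, had a median of 0.061 over 24 measured genes with their adhesion partners. ITGB8, which activates latent TGF-beta, was 2.66-fold higher (7.83, 6.42 and 8.30). CAV1 and CAV2, the coat proteins of caveolae, were bright and lower together: CAV1 read 12.07, 12.79 and 12.60 (1.64-fold), and CAV2 had a log2 ratio of −0.57. The probe sets of CAV1 ranged from −0.89 to −0.71 and those of CAV2 from −0.97 to −0.57. SDC2, a cell surface heparan sulfate proteoglycan, was 2.16-fold lower with probe sets of −1.34 and −1.11. NT5E (CD73, the ectoenzyme that makes adenosine) was 2.15-fold higher (8.84, 7.74 and 7.87), and its 3 probe sets ranged from 0.86 to 1.15.

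Genes of actomyosin contraction leaned only slightly lower, with a median of −0.087, close to the −0.085 of the mitosis genes. Under alternative settings that median came as high as −0.0022. Of 23 measured actomyosin genes 3 were at least 1.5-fold lower and 0 higher, and 7 read above 0. MYLK, the myosin light chain kinase of smooth muscle and non-muscle cells, had log2 signals of 8.68, 10.28 and 9.92, a 3.03-fold difference, with probe sets of −1.60 and −1.28. MYLK3, the related kinase of heart muscle, was 2.24-fold lower (8.84, 10.00 and 9.60), and its 3 measured probe sets ranged from −1.16 to −0.72. MYH10, the heavy chain of non-muscle myosin IIB, was 1.63-fold lower (9.65, 10.36 and 9.21). TNNC1, the calcium-binding troponin of slow muscle, was 2.63-fold lower (11.19, 12.58 and 11.97) with the noise SD of its log2 ratio at 0.106. It was the 1 gene past 1.5-fold among 8 measured muscle-type contractile genes, which had a median of −0.043 with 4 above 0.

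Target genes of SRF and YAP, which answer to actin polymerisation and to tension, had a median of −0.24 over 22 measured genes. Of these 3 were at least 1.5-fold lower and 1, NT5E, higher. ACTG2, the smooth muscle gamma actin, was 1.81-fold lower on the ORF-labelled array, with log2 signals of 8.90, 9.75 and 10.45. THBS1 (thrombospondin 1) was 1.64-fold lower (9.58, 10.29 and 10.73) and TAGLN (transgelin) 1.52-fold (9.44, 10.04 and 10.24). For these 3 genes the shRNA-labelled array read highest. The 4 measured probe sets of THBS1 ranged from −0.71 to −0.04 and the 3 of TAGLN from −0.62 to −0.0046. MYL9, the regulatory light chain that MYLK phosphorylates, had a log2 ratio of −0.51.

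The promoters of ACTG2 and MYLK are shown because they hold a CArG box, the motif bound by SRF, within the same window and from the same table. The capitals mark the box. A single promoter per gene was taken. Which MYLK transcript starts after this window, and whether that transcript encodes the kinase, was not checked.
ACTG2, chr2:73892758-73893007, plus strand: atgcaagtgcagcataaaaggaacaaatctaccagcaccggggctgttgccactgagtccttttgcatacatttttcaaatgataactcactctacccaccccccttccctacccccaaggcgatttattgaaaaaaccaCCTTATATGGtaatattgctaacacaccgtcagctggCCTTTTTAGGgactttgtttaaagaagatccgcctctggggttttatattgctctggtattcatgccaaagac
MYLK, chr3:123620549-123620798, minus strand: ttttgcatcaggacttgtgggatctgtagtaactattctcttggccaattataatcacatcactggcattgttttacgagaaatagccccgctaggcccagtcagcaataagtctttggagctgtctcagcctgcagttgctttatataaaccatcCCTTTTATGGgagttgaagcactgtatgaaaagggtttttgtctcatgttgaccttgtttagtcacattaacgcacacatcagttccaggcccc
Of 38 promoters of measured SRF, YAP and actomyosin genes, 5 (13.2%) held a CArG box: ACTG2, CNN2, MYLK, ROCK2 and TPM4. The share was 1.14% of all promoters, 0.984% of those of measured genes, 2.46% (6 of 244) of those of genes at least 1.5-fold lower and 1.5% (4 of 266) of those of genes at least 1.5-fold higher. Among bright genes it was 6.52% (3 of 46) of those lower and 0 of 65 of those higher. The SRF, YAP and actomyosin genes, too, were listed for their known regulation, so their share of 13.2% describes the list.

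Among 28 measured actin filament regulators 4 were at least 1.5-fold lower and 2 higher. SCIN (scinderin, which severs actin filaments) was 2.76-fold lower (7.70, 9.16 and 8.76), and its 3 measured probe sets ranged from −1.46 to −1.06. GSN (gelsolin, a relative) was 1.78-fold lower. ARHGDIB was 2.03-fold lower by its brightest probe set, but another probe set read 0.29. SORBS2, an adaptor of stress fibres, was 2.87-fold higher (9.20, 7.68 and 8.21), with 6 measured probe sets from 0.69 to 1.52. LIMK1, the kinase that inactivates cofilin, had a log2 ratio of 0.60.

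**Figure D3:**
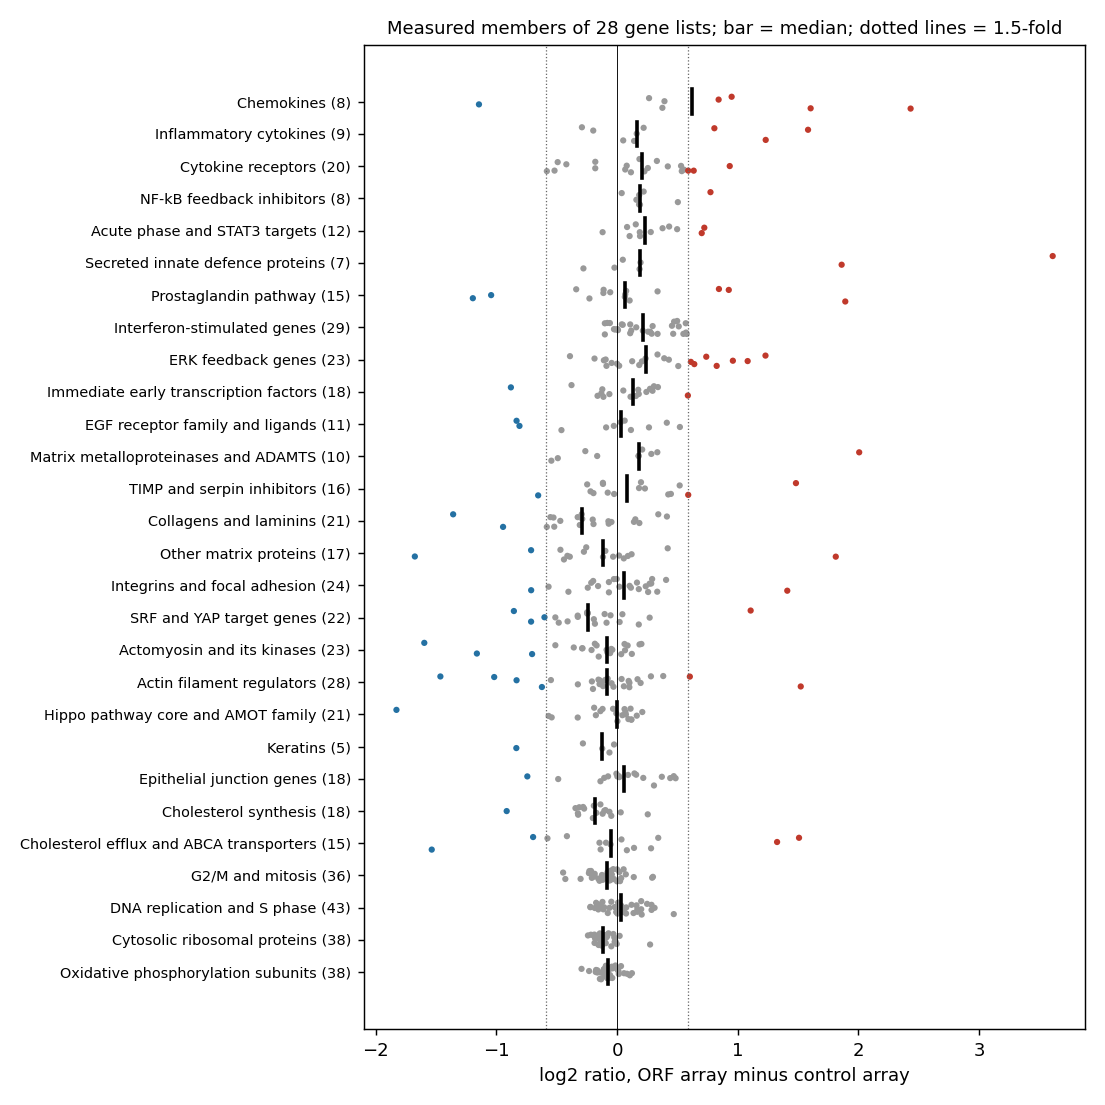
Log2 ratios (x axis) of the measured members of the gene groups (y axis), 1 point per gene from 1 pair of arrays, with a bar at each group's median. Chemokines reach a median of 0.62, collagens and laminins −0.29, and most of the housekeeping groups lie near 0. Under alternative settings the chemokine median fell as low as 0, and that of collagens and laminins rose as high as −0.046.

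Epithelial and mesenchymal genes gave no common direction. Of 18 measured junction genes 1 was past 1.5-fold, TJP3, a tight junction scaffold, 1.67-fold lower. Mesenchymal genes had a median of 0.12 over 15 measured. All 5 measured keratins read below 0, and KRT8, the partner of KRT18 in simple epithelia, was 1.78-fold lower (12.50, 13.34 and 12.76) by a single probe set of a kind that can match several transcripts. Neuronal genes were mixed: PCLO, a scaffold of the presynaptic zone, was 2.27-fold lower and NRXN3, a synaptic adhesion protein, 1.81-fold lower, while NRP1, a receptor of semaphorins and VEGF, was 2.02-fold higher. In all, of 15 measured neuronal genes, 2 passed 1.5-fold upward and 3 downward.

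Transport of cholesterol and iron showed single genes with large ratios. ABCA1, which loads cholesterol onto apolipoprotein A1, was 2.84-fold higher (8.51, 7.01 and 6.30), with its other measured probe set at 0.44. ABCG1, which passes cholesterol on to high-density lipoprotein, was 2.51-fold higher (7.95, 6.63 and 6.26) and its other measured probe set read 0.85. On the shRNA-labelled array both read below the control-labelled one. ABCA13, another member of the ABCA family, was 2.90-fold lower (7.51, 9.04 and 9.15), and APOE was 1.62-fold lower. Enzymes of cholesterol synthesis leaned lower with a median of −0.18, 2 of 18 above 0 and 1 past 1.5-fold. That gene was TM7SF2, a sterol reductase, at 1.89-fold lower near the floor. TM7SF2 counted as measured only through its signal on the control-labelled array. STEAP1, a cell surface protein of the STEAP family, was 3.52-fold higher (9.15, 7.33 and 9.07). SLC11A1, a metal transporter of phagocyte lysosomes, was 1.89-fold lower with probe sets of −1.11 and −0.92. FABP3, a carrier of fatty acids in muscle, was 1.72-fold lower (11.30, 12.08 and 11.46).

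Amino acid and polyamine genes held SAT1, the enzyme that acetylates spermidine and spermine for export and breakdown. SAT1 had log2 signals of 12.74, 11.82 and 11.85, a 1.89-fold difference with a noise SD of 0.101 for its log2 ratio, and its 3 probe sets ranged from 0.85 to 1.14. SHMT1, a serine hydroxymethyltransferase, was at least 1.97-fold lower, and counted as measured only through its signal on the control-labelled array. SLC7A2, a carrier of cationic amino acids, was 2.25-fold higher (10.85, 9.67 and 9.98), and SLC1A3, a glutamate carrier, 2.04-fold (9.65, 8.62 and 9.05). Among hypoxia genes 2 of 22 were at least 1.5-fold higher. CA12, a carbonic anhydrase of the cell surface, was 1.73-fold higher with 5 measured probe sets from 0.67 to 0.93. EGLN3, an oxygen sensor enzyme, was at least 1.62-fold higher, and counted as measured only through its signal on the ORF-labelled array. CYP1B1, a cytochrome P450 that the aryl hydrocarbon receptor turns on, was 2.06-fold higher (10.82, 9.78 and 10.43). In the circadian clock CRY2, a repressor, was at least 2.40-fold lower (5.34, 7.19 and 6.88), while NPAS2, an activator, was 1.55-fold higher.

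Most genes of the large housekeeping groups were bright, and of all bright genes only 1.07% were at least 1.5-fold higher and 0.726% lower. These groups held no gene past 1.5-fold. This was so for 36 measured genes of mitosis, 43 of DNA replication, 38 ribosomal proteins, 25 of ribosome biogenesis, 38 subunits of oxidative phosphorylation, 22 of glycolysis and 25 heat shock factors and chaperones of the HSP70 and HSP90 families. Medians were −0.085 for mitosis, 0.032 for replication, −0.075 for oxidative phosphorylation and 0.027 for the chaperones. Ribosomal proteins had a median of −0.12, which became 0.0087 under quantile normalization, so their direction depends on the scaling. The median of the chaperones turned sign under equal medians. Among stress genes, 1 of 32 in the unfolded protein and integrated stress responses was past 1.5-fold (DDIT3, 1.65-fold lower). So were 0 of 17 p53 targets and CDK inhibitors, and 1 of 29 apoptosis regulators (BMF, a BH3-only protein, 1.99-fold higher). Such counts do not set stress and death genes apart, because only 3.09% of all measured genes passed 1.5-fold upward and 2.78% downward.

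Genes with several probe sets give a technical repeat within the same pair of arrays. Of the 112 genes at least 1.5-fold higher with 2 or more measured probe sets, 77 (68.8%) had them all on the same side of 0, as did 72 of 99 (72.7%) genes that were lower. These genes were picked by 1 of the same probe sets. No such share was computed over all genes with 2 or more measured probe sets. Every measured probe set was past 1.5-fold upward for 29 of 5944 such genes (0.488%) and downward for 25 (0.421%). By the smallest ratio of a gene, the upper end was led by TNFAIP6, PTGS2, PI3 and RAB31, a GTPase of vesicle transport whose 3 probe sets lay between 1.19 and 1.26. TNFAIP6 stands there only because its ORF-labelled signal carried it over the floor. The lower end was led by MYLK, GPNMB, SDC2 and SCIN. GPNMB, a glycoprotein of lysosomes and melanosomes, had log2 signals of 8.17, 9.31 and 8.60 and probe sets of −1.78 and −1.14. SH3KBP1, an adaptor of receptor uptake, was 1.96-fold higher on the ORF-labelled array (10.12, 9.15 and 10.43) by 3 probe sets between 0.97 and 1.15. SLFN5, an interferon-inducible gene, was 3.71-fold higher by one probe set and had a log2 ratio of 0.97 by another. ALPG, a germ cell alkaline phosphatase close in sequence to other alkaline phosphatases, was 2.03-fold lower by both of its probe sets, and such copies can share signal.

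The reading of a gene by its brightest probe set matters for many of the genes above. When the median over all probe sets was taken instead, those under the floor included, the log2 ratio became 0 for MMP2, MYLK, ITGB8, LAMA4, CXCL2, NRG1, SLC11A1, FZD1, DKK3, GSN, NR4A3 and APOE. It came inside 1.5-fold for AMOTL1 (−0.54), IGFBP1 (0.56), ACTG2 (−0.43), ABCA1 (0.22), SLFN5 (0.24), NFKBIZ (0.43), PLAUR (0.43), THBS1 (−0.080), PTGDS (−0.20) and PCLO (−0.29), among others. For PTGS2, PI3, IL11, DUSP6, SAT1, EDIL3 and SCIN, which have 2 or more probe sets, the difference stayed past 1.5-fold. LCN2, IL6, IER3 and TNNC1 have 1 probe set each, so this setting leaves them as they are. Without probe sets that can match several transcripts, NFKB2 (0.41), PTGS1 (0.28), THBS1 (−0.17), TAGLN (−0.0046) and PLAUR (0.42) came inside it.

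**Figure D4:**
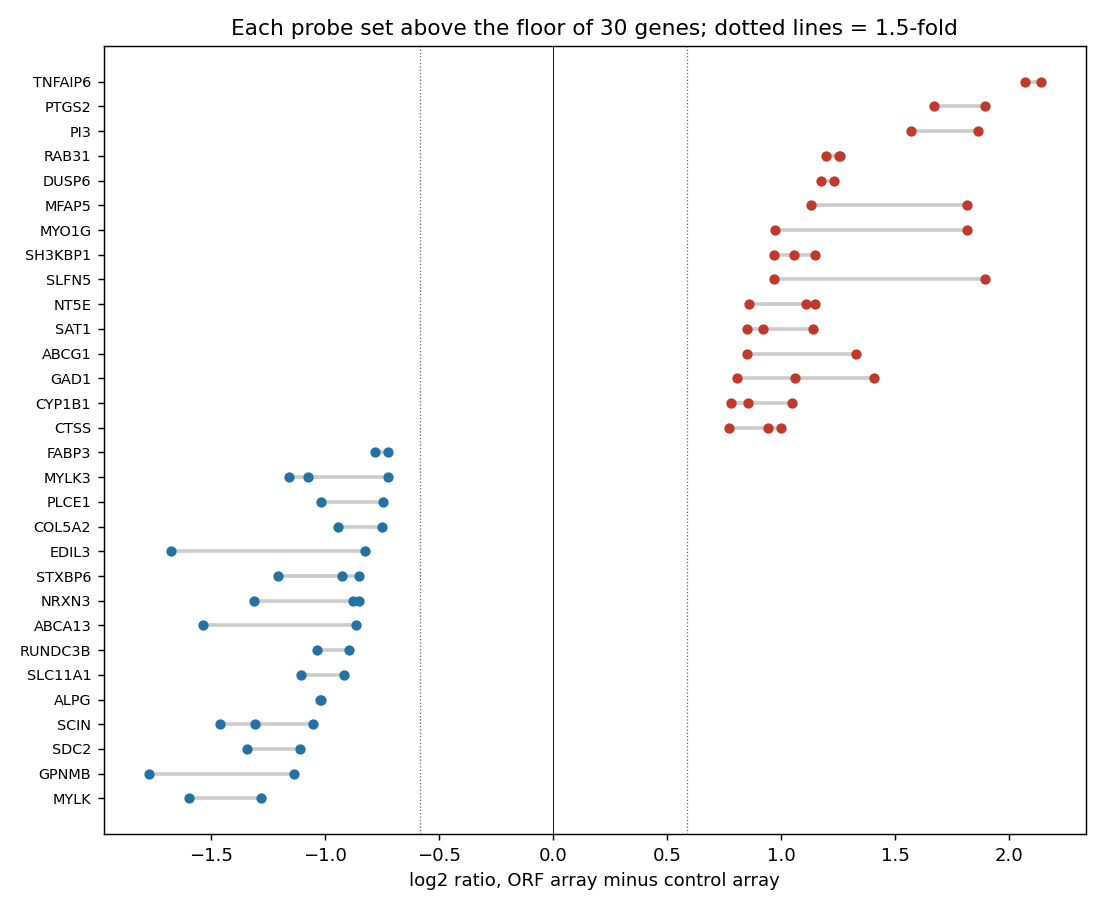
Log2 ratio of each measured probe set (x axis, points) for the 15 genes per direction (y axis) with the largest smallest ratio among genes whose probe sets were all past 1.5-fold. TNFAIP6 has its probe sets at 2.07 and 2.14 and MYLK at −1.60 and −1.28, all from 1 pair of arrays.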

How the data were processed

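Total RNA of 3 lines labelled HepG2 was column-purified, and biotin-labelled by in vitro transcription from the 3′ end, per the labels' protocols. For each of 54675 probe sets the authors deposited a log2 signal per array. MAS5 is named in the submitters' processing notes. Its version and settings were not given in the sources used here. The log2 scale was read from the values: the 2% trimmed mean of the linear signals was 500.1 on the ORF-labelled and on the control-labelled array. Signals of 1801 probe sets with several gene symbols and 11777 with none were left out of the gene counts. Of 41097 with 1 symbol, 41043 matched RefSeq's gene table.

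Signals were scaled to equal trimmed means and raised to the floor (5.93, or 60.8 linear) before ratios were taken. Each gene was read by its probe set of highest mean signal. The noise SD came from 6768 same-gene pairs of probe sets in 20 bins of signal, as the SD of the difference of their ratios divided by the square root of 2. The procedure was tested on simulated data. Python 3.11.15, pandas 2.3.3 and statsmodels 0.14.6 were used. With 1 array per group no test was run, and precision is limited by the number of arrays.

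Named genes were HSPB1 and its family, the 20 highest and 20 lowest bright genes whose other measured probe sets had the same sign (9 of each 20 had only 1 measured probe set), the 15 genes per direction with the largest smallest ratio among genes with all probe sets past 1.5-fold, and up to 5 measured members per list. A few further list members are named beside them. The comparison, lists and members were chosen with earlier results of these data known. Alternatives were quantile and loess normalization, equal medians, no floor, the floor moved to the 75th percentile, medians over probe sets, dropping probe sets with _x_at or _s_at names (which can match several transcripts), choosing probe sets on both compared arrays, and measured on at least 1 array.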

Additional observations from a re-analysis of the deposited data

Results flagged for a closer look

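The bright probe sets with several gene symbols or none, 1490 in number, were in no gene count of the comparison, and 2 of them were at least 3-fold higher on the ORF-labelled than on the control-labelled array, with 0 at least 3-fold lower. The probe set assigned to both SAA1 and SAA2 (serum amyloid A proteins, acute phase proteins of liver and inflamed tissue), read 11.09 on the ORF-labelled, 6.95 on the control-labelled and 9.23 on the shRNA-labelled array, a log2 ratio of 4.14 or 17.6-fold. It cannot tell both genes apart. The other, with no symbol in the annotation used, read 9.59, 7.91 and 9.17 in the same order, a log2 ratio of 1.68 or 3.20-fold. Neither difference has a replicate check.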

How the results depend on the processing

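With the floor at the 75th percentile, 71 genes passed 1.5-fold upward and 54 downward, 12 and 9 passed 2-fold, and 6 and 3 had every probe set past 1.5-fold upward and downward. That setting leaves dim genes without a ratio. When a gene was read by the median of its probe sets, 211 passed 1.5-fold upward and 185 downward, and 38 and 26 passed 2-fold, since probe sets below the floor then pull ratios to 0. DLL3 turned to −0.050 and ARHGDIB to 0.29 under that setting. Without probe sets ending in _x_at or _s_at, 14 genes had every probe set past 1.5-fold upward. Of 127 named genes past 1.5-fold, 123 stayed past it under quantile, loess and equal-median scaling each (not IL20RB, MAFF, FGF2 and SPINT2), 54 with the higher floor, 75 with the median over probe sets and 87 of 92 without the _x_at and _s_at probe sets. HSPB1 read between −0.17 and −0.094 under the settings that gave it a value, which leave out the last one because its only probe set is an _s_at. Across the alternative settings the lowest list medians were 0 for chemokines, cytokine receptors and ERK feedback genes, and 0.0075 for interferon-stimulated genes. For collagens and laminins the highest was −0.046. No paired analysis was possible because each group has 1 array.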

Other observations

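Large gene families read near 0. Of 221 measured solute carriers 5 were at least 1.5-fold higher and 7 lower. None of 46 proteasome genes or 76 mitochondrial ribosomal protein genes was past 1.5-fold. RAB GTPases had 3 of 63 higher and 3 lower. The shares over all measured genes were 3.09% higher and 2.78% lower. By chromosome, the median log2 ratio of bright genes ran from −0.034 on chromosome 3 (468 genes) to 0.031 on chromosome 10 (310 genes). Bright genes at least 1.5-fold higher were most numerous on chromosomes 2 and 6, with 11 of 514 and 11 of 411. Those lower were most numerous on chromosome 7, with 7 of 383. Over all 7849 bright genes the shares were 1.07% higher and 0.726% lower. Chromosomes 13 and 14, with 146 and 244 bright genes, had 0 of either.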
